A study of Bos taurus and Cervus elaphus with 24 samples.

Results

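This comparison takes both cattle breeds of the study together and asks how blood RNA differs between peak lactation and the dry period over both. It uses 16 of the 24 arrays of the study, 8 from peak lactation and 8 from the dry period, and leaves out the 8 deer arrays. The 16 arrays come from 8 animals bled once in each state, 4 Holstein Friesian (HF) and 4 Polish Red (PR). HF is a high-yielding dairy breed and PR a local Polish breed. The samples are labelled as peripheral blood nuclear cells, no ages are given, and the blood was drawn into tubes that preserve RNA at collection. Each Agilent array carried the animal's RNA in the Cy5 dye and, in the Cy3 dye, a common reference made from the RNA of 20 other cattle. A level is therefore the log2 ratio of an animal to that pool, and a difference is the level at peak lactation minus the level in the dry period, from 1 model with breed as a term and the animal as a block.

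In the dry period, milk removal has stopped before the next calving. At peak lactation the udder draws heavily on glucose, fat and amino acids. Blood leukocytes are the cells that defend the udder: neutrophils and monocytes take up bacteria, while T, B and gamma delta T cells carry receptors for antigens. Such cells also sense lipids and hormones, so both immune and metabolic genes can be read in blood RNA. In a bulk sample more cells of a type and more RNA per cell cannot be told apart.

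Every blood cell list checked had detected markers. Of 25 monocyte genes on the array 24, of 39 neutrophil genes 35 and of 9 gamma delta T cell genes 8 were well above background on all 16 arrays. The globin gene HBA stood at the 99.7 percentile of Cy5 intensity, so RNA of neutrophils and red cells was present beside that of mononuclear cells. On 15 arrays the median Cy5 intensity lay between 109 and 255. PR dry replicate 1 stood apart at 2038, with 43635 probes above background and 696 outlier spots. The spike-in correlation in the file headers was 0.33 on that array and 0.17 to 0.40 for HF animals 2 and 3, against at least 0.899 on all other cattle arrays. PR dry replicate 2 correlated at 0.44 to 0.60 with the HF dry arrays and at 0.10 to 0.36 with the other PR dry arrays, across probes. With the lactation arrays it correlated at 0.21 to 0.51 in PR and at 0.055 to 0.44 in HF. It shared a slide with HF animal 4. Position on the slide went largely with the state: 7 dry arrays lay at position 1, where no lactation array lay. Only position 3 held both states, with 5 lactation arrays and 1 dry array, PR dry replicate 2. A fit with position as a factor compares the states through that dry array. Position and state therefore cannot be told apart on most arrays.

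At peak lactation 3 probes rose and 2 fell in the breeds together. Those that rose belong to GNB4, a beta subunit of the G proteins that pass signals from surface receptors, to ACVRL1, a type I receptor of the TGF-beta and BMP family, and to CLEC4D, a C-type lectin receptor of myeloid cells. Those that fell belong to NUDT16L1, a Nudix-like protein that in human cells binds the DNA repair factor 53BP1, and to ABCC10, a membrane transporter of the ABC family. The 5 were called among 32300 probes tested (0.0155%, with 0.00929% higher and 0.00619% lower) at an adjusted p under 0.05 by limma with Benjamini-Hochberg adjustment, and each moved the same way in 8 of 8 animals. Counting the brightest probe of each gene, 3 of 13212 genes were called (0.0227%), namely GNB4, ACVRL1 and NUDT16L1. The opening bases of the probes are shown because probes of 1 gene gave different answers. Each probe has 60 bases, of which the first 30 are printed, with the position in the cattle assembly UMD 3.1 given by the file headers. Exons and untranslated regions were not assigned. Capitals mark the bases that the printed stretches of the overlapping ACVRL1 probes A_73_P435161 and A_73_P419211 share. By their positions these probes also overlap beyond the stretch printed for A_73_P419211. Small letters in A_73_P435161 therefore do not mark bases that A_73_P419211 lacks.
GNB4 A_73_105960, called, chr1:88259560-88259619, plus strand: tattgtggatgtgctaataagtgcatctgc
CLEC4D A_73_102072, called, chr5:102152525-102152584, plus strand: ggagtgattttccttgtgactctaagacaa
CLEC4D A_73_P245596, not called, chr5:102151927-102152489, plus strand: taacccacagatagtattctggcacaagcg
ACVRL1 A_73_P435161, called, chr5:28097837-28097896, minus strand: GAAAGGTTTTGTCCTGatgtccttagaagt
ACVRL1 A_73_P419211, not called, chr5:28097851-28097910, minus strand: ttcatctctatatcGAAAGGTTTTGTCCTG
ACVRL1 A_73_115320, not called, chr5:28098741-28098800, minus strand: ccaaagttattccctagccatggggctgaa
NUDT16L1 A_73_P031331, called, chr25:3810313-3810372, plus strand: acctggctgagcaggaagctgaggagctct
ABCC10 A_73_117027, called, chr23:16981799-16981858, plus strand: cccacatacacgtccactgttttatttgat
ABCC10 A_73_P464386, not called, chr23:16977743-16977802, plus strand: tgctgctgccgcctctgagcatcatctact

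GNB4 lay between -1.08 and -0.22 in the 8 dry arrays (median -0.70) and between -0.22 and 0.34 in the 8 lactation arrays (median 0.09). Every lactation array lay above every dry array, a separation that 8 of 13212 genes showed upward (0.0606%) and 1 downward (0.00757%), or 10 probes upward (0.031%) and 5 downward (0.0155%). For GNB4 the groups all but touched, with PR dry replicate 3 at -0.21798 and HF lactation replicate 1 at -0.21651. The difference was 0.74 (SE 0.11, adjusted p = 0.0393), or 1.67-fold, with 0.70 in HF and 0.78 in PR. The animals differed by 0.62, 0.76, 0.75 and 0.69 in HF and by 1.35, 0.62, 0.55 and 0.60 in PR, and the largest of these includes the dry array that stood apart. Without that animal the difference was 0.65 (adjusted p = 0.0169). The other 2 probes of GNB4 gave 0.39 (SE 0.086) and 0.44 (SE 0.16), in the same direction and short of the threshold.

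ACVRL1 lay between -1.35 and -0.75 in the dry arrays (median -0.98) and between -0.79 and -0.11 in the lactation arrays (median -0.41). The groups met at 1 array, PR lactation replicate 1, which lay among the dry values. The difference was 0.64 (SE 0.097, adjusted p = 0.0393), or 1.56-fold, with 0.79 in HF and 0.49 in PR. Its overlapping probe gave 0.74 (SE 0.16, adjusted p = 0.133), and its dimmest probe gave -0.014 (SE 0.072, adjusted p = 0.963), so the probes of ACVRL1 disagree.

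CLEC4D lay between -0.89 and -0.26 in the dry arrays (median -0.68) and between -0.35 and 0.15 in the lactation arrays (median -0.078). Only 1 lactation array, HF lactation replicate 4, fell within the dry range. The difference was 0.56 (SE 0.078, adjusted p = 0.0393), or 1.47-fold, with 0.72 in HF and 0.39 in PR. The brightest probe of CLEC4D gave 0.58 (SE 0.091, adjusted p = 0.0519), just outside the threshold.

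NUDT16L1 lay between -0.11 and 0.52 in the dry arrays (median 0.22) and between -0.41 and 0.07 in the lactation arrays (median -0.11). The groups overlapped, because PR animals lay lower than HF animals in both states, yet all 8 animals were lower at lactation. The difference was -0.34 (SE 0.052, adjusted p = 0.0393), or 1.27-fold lower, with -0.39 in HF and -0.30 in PR.

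ABCC10 lay between -0.45 and 0.28 in the dry arrays (median -0.069) and between -0.78 and 0.04 in the lactation arrays (median -0.48). Here too the breeds differed in level in both states, and each of the 8 animals was lower at lactation. The difference of the called probe was -0.42 (SE 0.064, adjusted p = 0.0393), or 1.34-fold lower, with -0.48 in HF and -0.37 in PR. The brightest probe of ABCC10 gave 0.18 (SE 0.25, adjusted p = 0.840) and the dimmest -0.018 (SE 0.049, adjusted p = 0.927). The fall of ABCC10 is therefore a reading of 1 of its 3 probes.

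**Figure D1:**
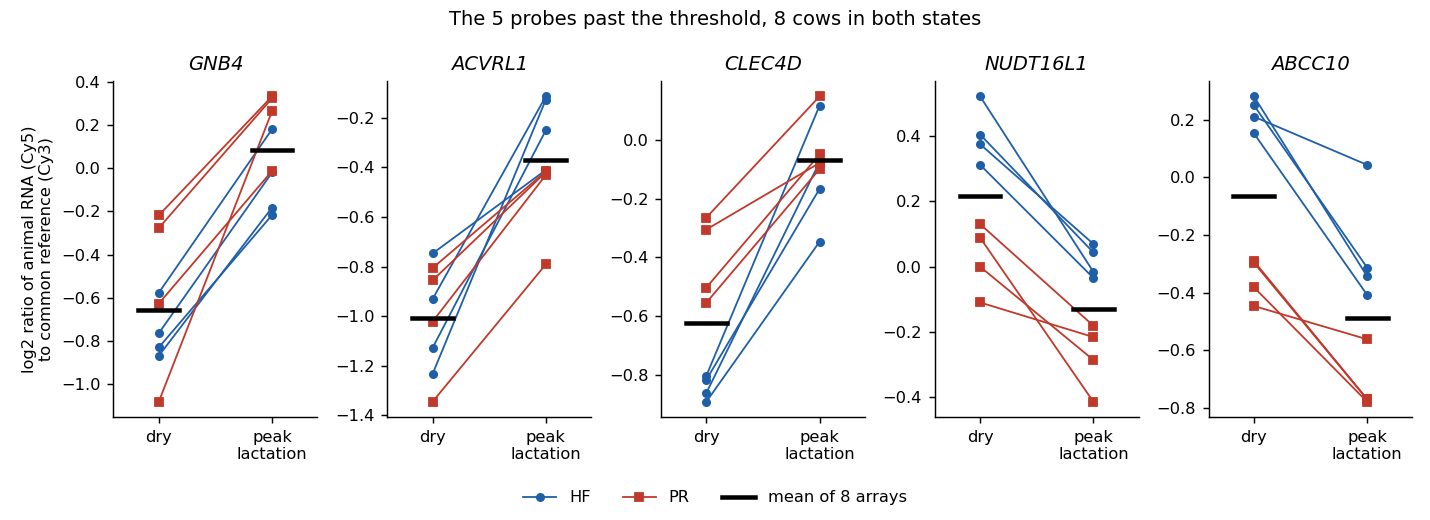
Level of the 5 called probes (log2 ratio of the animal's RNA to the common reference) in either state, with 1 line for each of the 8 animals (HF circles, PR squares) and a black bar for the mean of 8 arrays. All 8 lines rise for GNB4, ACVRL1 and CLEC4D and all 8 fall for NUDT16L1 and ABCC10, and each panel has its own vertical scale.

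The calls lie close to the threshold. Leaving out any of HF dry replicates 2, 3 and 4, HF lactation replicates 2, 3 and 4, or PR lactation replicates 2 and 4 left 0 probes called, while leaving out HF dry replicate 1, HF lactation replicate 1, PR dry replicate 2 or PR lactation replicate 3 left 2, 1, 1 and 2. Without PR dry replicate 1 there were 36 calls, and without PR dry replicate 3, PR dry replicate 4 or PR lactation replicate 1 there were 12, 27 and 21, and all 5 probes were among the calls in each of these. With slide position as a factor none of the 5 passed. The differences kept their direction: over the 45 alternatives tried, GNB4 lay between 0.52 and 1.03 and ACVRL1 between 0.41 and 0.88. NUDT16L1 lay between -0.65 and -0.31. Over the 44 alternatives that gave a value for them, CLEC4D lay between 0.46 and 0.76 and ABCC10 between -0.51 and -0.33.

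**Figure D2:**
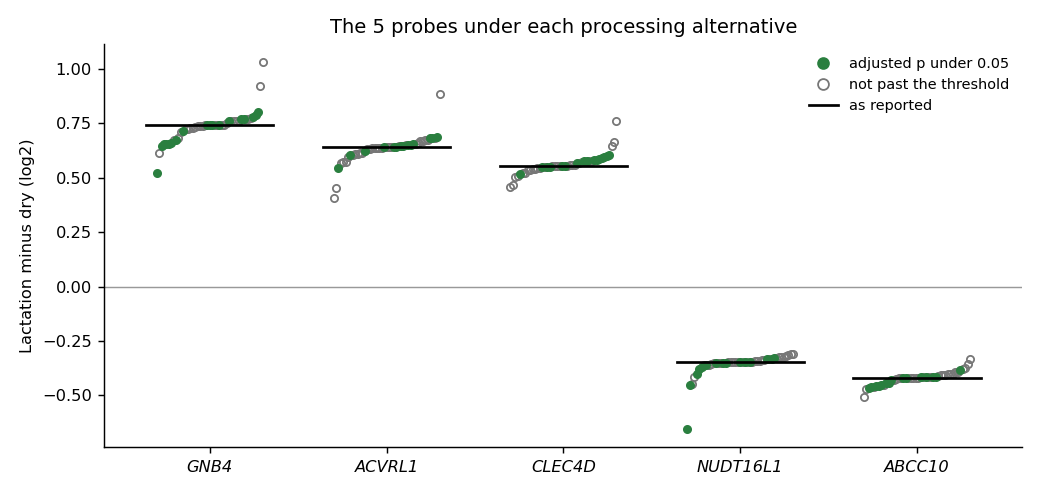
Lactation minus dry difference (log2) of the 5 called probes under each processing alternative, sorted within a probe, with filled green points past an adjusted p of 0.05, open grey points not past it and a black line for the reported value. No probe crosses 0, and most points of each probe are open.

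The called probes did not differ between the breeds past the threshold. HF minus PR came to -0.078 (SE 0.22) for GNB4, 0.29 (SE 0.18) for ACVRL1, 0.34 (SE 0.13) for CLEC4D, -0.086 (SE 0.11) for NUDT16L1 and -0.11 (SE 0.13) for ABCC10, all with an adjusted p of at least 0.931 by limma. Over all 32300 probes the breeds' effects differed at 0 probes by limma (0%), with 1204 at an unadjusted p under 0.05 (3.73%). A p that misses the threshold does not show equal effects. Each breed's own effect came from a joint limma fit of all 16 arrays, not from a fit of 1 breed. There the HF effect passed at 5 probes (0.0155%), and 3008 lay at an unadjusted p under 0.05 (9.31%). The PR effect passed at 0 probes (0%), and 1853 lay at that level (5.74%). The reference RNA in Cy3 gave 0 calls between the states, and 116 probes at an unadjusted p under 0.05 (0.359%). Cy5 intensity alone also gave 0 calls, so 0 calls in Cy3 cannot show that the reference was unchanged. Lactation minus dry in Cy3 was 0.29 for GNB4, 0.24 for ACVRL1 and 0.21 for CLEC4D. It was -0.10 for NUDT16L1 and 0.087 for ABCC10. In the authors' deposited table, GNB4 and NUDT16L1 stand on both breeds' lists, ACVRL1 and ABCC10 on the HF list, and CLEC4D on neither. Those lists were chosen on the same arrays.

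Next to the called genes stood genes that were higher in 7 or 8 animals and did not pass. NLRC4, which joins NAIP proteins in an inflammasome that senses bacterial proteins, lay between -1.20 and -0.47 in the dry arrays (median -0.60) and between -0.28 and 0.10 in lactation (median -0.090). The groups did not overlap, and the difference was 0.61 (SE 0.10, adjusted p = 0.0519). THBS1, the secreted glycoprotein thrombospondin 1, had the largest difference among the genes named here, 1.25 (SE 0.21, adjusted p = 0.0519), or 2.38-fold. It lay between -2.08 and -0.064 in the dry arrays (median -1.07) and between -0.58 and 0.99 in lactation (median 0.26). The groups overlapped at 3 lactation arrays, although all 8 animals were higher. A further bright probe of THBS1 gave 1.23 (SE 0.21), while its 4 dimmer probes gave between 0.082 and 0.18. Over 45 alternatives THBS1 lay between 0.50, as the mean of its probes, and 1.80, and it passed the threshold in 14. CMBL, a hydrolase, gave 0.73 (SE 0.12, adjusted p = 0.0519) with no overlap between the groups.

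A further transcription factor and surface proteins followed in the order of p. OLR1, the receptor for oxidised LDL, gave 0.82 (SE 0.15), higher in 7 animals, and came to -0.018 with slide position as a factor. TFEC, a transcription factor of the MiT family found in myeloid cells, gave 0.51 (SE 0.10). TNFSF13B, the B cell survival cytokine BAFF, gave 0.45 (SE 0.089), and ACSL6, which activates long-chain fatty acids, gave 0.71 (SE 0.14) without overlap between the groups. ENO3 (enolase 3, 0.69), ANKRD22 (0.70) and DPYD (pyrimidine breakdown, 0.47) also lay on the higher side, where adjusted p ran from 0.0963 to 0.115 from OLR1 onward.

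On the lower side the differences were smaller. TPM2, a tropomyosin of the actin cytoskeleton, gave -0.42 (SE 0.074, adjusted p = 0.0731) and VAMP1, a vesicle SNARE protein, gave -0.44 (SE 0.078, adjusted p = 0.0776), each lower in 8 of 8 animals. The next were CCER2 (-0.25), the integrin subunit ITGA10 (-0.28), the tubulin-trimming carboxypeptidase AGBL5 (-0.26), the peroxisome assembly factor PEX10 (-0.30), GLB1L3 (-0.26), the Polycomb protein PHC1 (-0.25), CXHXorf65 (-0.37), FBF1 (-0.28), the Fanconi anaemia protein FANCE (-0.24), ZNF692 (-0.27), CLASRP (-0.27) and AGFG2 (-0.32). Their adjusted p ran from 0.107 to 0.148, and each was lower in 7 or 8 animals. The 2 dimmer probes of TPM2 gave -0.055 and -0.026, so its difference was carried by its brightest probe. The dimmer probes of AGBL5 (-0.075), PEX10 (-0.035), AGFG2 (-0.078) and CLASRP (0.043) also lay near 0, and those of CCER2, FANCE, FBF1 and ZNF692 lay between -0.15 and -0.081.

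Some genes led 1 breed alone in earlier results of these data and are given for that reason. NR1H3, the liver X receptor alpha that senses oxysterols, was 1.03 in HF and 0.35 in PR, and 0.69 together (SE 0.12, adjusted p = 0.0758), higher in all 8 animals. CPT1A, which passes fatty acids into mitochondria, was -0.09 in HF and 1.3 in PR, and 0.61 together (SE 0.23, adjusted p = 0.377). The next step of that route, the mitochondrial carrier SLC25A20, was -0.12 in HF and 0.78 in PR (0.33 together, adjusted p = 0.476). PDK4, which restrains glucose oxidation, was -0.05 in HF and 1.19 in PR (0.57 together, adjusted p = 0.342). Their differences between the breeds were chosen for that contrast and carry no test.

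**Figure D3:**
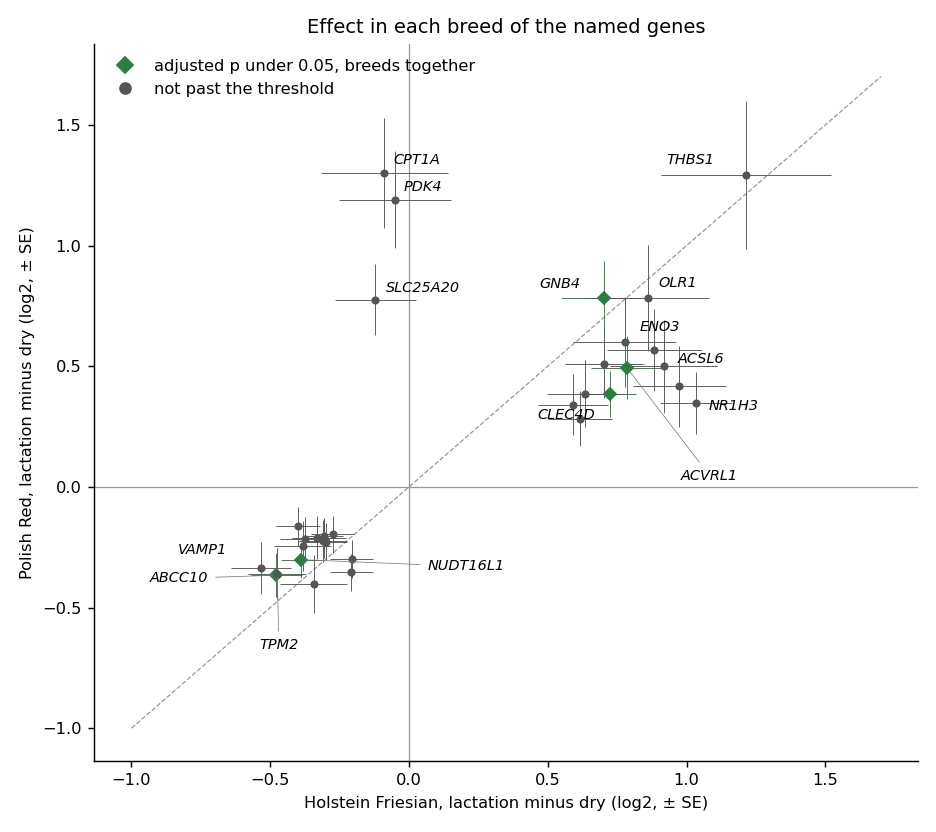
Lactation minus dry difference (log2, with SE bars) in HF on the horizontal and PR on the vertical axis for the genes past the threshold, the next by p on either side and the genes that led 1 breed, with green diamonds for the 5 called probes and a dashed line of equal effect. All but CPT1A, PDK4 and SLC25A20 lie in the quadrants where the breeds share a sign.

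Over all genes the effects of the breeds were set side by side with and without the libraries that stood apart. Of 13212 genes, 7338 had the same sign in both breeds (55.5%), and the effects correlated at 0.31 across genes, which are not independent replicates and share libraries within a breed. At an unadjusted p under 0.05 in each breed 149 genes passed, of which 148 had the same sign, 115 higher and 33 lower. Those 148 are 12.6% of the 1171 HF genes and 18.1% of the 819 PR genes at that level. Without PR animal 1, 173 of 188 such genes shared the sign, 69 higher and 104 lower. Without PR animal 2 it was 135 of 181. Without both it was 162 of 300, with 75 higher and 87 lower, and the correlation was 0.088. Without HF animals 2 and 3, 43 of 45 such genes shared the sign, 37 higher and 6 lower, and the correlation was 0.27.

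Over all probes 3305 lay at an unadjusted p under 0.05 (10.2%), 2075 higher (6.42%) and 1230 lower (3.81%). Of genes, 897 were higher (6.79%) and 446 lower (3.38%) at that level. Without PR animal 1 the probes split into 1941 higher and 2047 lower, so the excess on the higher side was not there without PR animal 1. In 8 of 8 animals 434 probes were higher (1.34%) and 327 lower (1.01%), or 193 genes (1.46%) and 121 genes (0.916%). Whatever their p, 7405 of the 13212 genes were higher and 5807 lower. The gene lists below are read against these shares, and a count of higher or lower members near them is no result of that list. No member of a list passed the adjusted threshold. These lists were drawn up with earlier results of the same arrays known.

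Phagocyte genes lay on the higher side. Of 24 tested monocyte and macrophage genes, 23 were higher and 14 reached an unadjusted p under 0.05, with a median of 0.35 against 0.017 over all genes. Their mean level lay between -0.75 and -0.31 in the dry arrays and between -0.28 and 0.12 in lactation, without overlap. VCAN (versican, 0.72), FCN1 (the lectin ficolin 1, 0.58) and FGL2 (0.56) were among the members with the smallest p. The mean of the list was higher at lactation by 0.36, 0.69, 0.35 and 0.24 in the HF animals, and by 0.72, 0.17, 0.10 and 0.16 in the PR animals. Without PR animal 1, 23 members were again higher and 15 reached that level, and over 45 alternatives the median stayed between 0.20 and 0.41. The count at that level ran from 2, with slide position as a factor, to 17.

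The neutrophil and granule genes had the largest median of the lists, 0.41, with 34 of 37 higher and 13 higher at an unadjusted p under 0.05. FCGR3A, an Fc receptor for IgG, gave 0.96 (SE 0.20, adjusted p = 0.131), and lysozyme (LYZ) gave 0.60 (SE 0.13). The calgranulins S100A8 and S100A12, calcium-binding alarm proteins of neutrophils, gave 1.20 (SE 0.30) and 1.04 (SE 0.26). Chosen after their values were seen, the chemokine receptor CXCR1 gave 0.85 (SE 0.25) and the gelatinase MMP9 1.1 (SE 0.305). Against the list and chosen in the same way, myeloperoxidase (MPO), a granule enzyme made in the bone marrow, gave -0.65 (SE 0.25). The list's median was 0.73 in HF and 0.18 in PR. The mean was higher by 0.15 to 1.28 in the 4 HF animals and by 0.75 in PR animal 1, while the other PR animals lay between -0.03 and 0.22. Without HF animals 2 and 3 the median of the neutrophil and granule list was 0.23, with 26 of 37 higher.

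Receptors by which phagocytes bind their targets also lay on the higher side. Of 25 tested complement and phagocyte receptor genes, FCGR3A among them, 20 were higher and 11 reached an unadjusted p under 0.05 (median 0.33). That 11 became 5 without PR animal 1, 6 without HF animal 2, and 7 without HF dry replicate 1. Properdin (CFP), which steadies the alternative complement pathway, gave 0.61 (SE 0.13), the complement inhibitor CD55 gave 0.57 (SE 0.18) and the anaphylatoxin receptor C5AR2 gave 0.61 (SE 0.20). Also chosen after their values were seen, the chains C1QA and C1QB of the first complement component gave 0.89 (SE 0.39) and 0.71 (SE 0.30). Of 35 pattern recognition and inflammasome genes, 27 were higher, 14 of them at that level, and 2 were lower at it (median 0.14). With slide position as a factor that 14 became 3. TLR7, a sensor of single-stranded RNA, gave 0.31 (SE 0.070), NAIP 0.73 (SE 0.19) and the lectin CLEC4E 0.55 (SE 0.15). Both lists had a higher mean in all 8 animals, although the pattern recognition list rose by only 0.016 in PR animal 3. The monocyte list, like CLEC4D and NLRC4, was higher at lactation in all 8 animals. The neutrophil list changed by -0.03 and 0.0078 in PR animals 3 and 4. In those animals CLEC4D was higher by 0.45 and 0.23 and NLRC4 by 0.22 and 0.36. The part of cell types in these results was not tested.

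Hormone and stress response genes lay on the same side. Of 25 glucocorticoid response genes 20 were higher and 11 reached an unadjusted p under 0.05 (median 0.31). The chemokine receptor CXCR4 gave 0.88 (SE 0.20), the kinase SGK1 0.81 (SE 0.23), the repressor BCL6 0.85 (SE 0.25) and ARRDC3 0.29 (SE 0.079). With slide position as a factor BCL6 came to 0.043, and without slides A, G and H CXCR4 came to 0.37 and SGK1 to 0.36. Of 26 immediate early genes 24 were higher and 7 reached that level (median 0.29), among them ATF3 (0.51), KLF4 (0.47), JUN (0.60) and ZFP36 (0.50). With slide position as a factor ATF3 came to -0.035 and KLF4 to -0.29. JUN differed by 2.30 in HF animal 3 and by -0.21 and -0.04 in PR animals 1 and 3, and came to 0.36 without HF animal 3. ZFP36 came to 0.33 without HF lactation replicate 3. In the immediate early list that 7 became 4 without PR animal 1 and 11 without PR animal 3. The mean of the glucocorticoid list was higher by 0.37 on average in HF, by 0.65 in PR animal 1 and by 0.045 on average in the other PR animals. For immediate early genes these values were 0.45, 0.63 and 0.042.

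Genes of the cytokine list were higher in 30 of 39 cases, 9 of them at an unadjusted p under 0.05 (median 0.092). TNFSF9, the ligand of the T cell co-stimulator 4-1BB, gave 0.89 (SE 0.19), the lymphotoxin receptor LTBR 0.56 (SE 0.12) and IL1RN, the interleukin-1 receptor antagonist, 0.78 (SE 0.19). For the interferon-stimulated list 44 of 47 genes were higher, of which 5 reached that level (median 0.16), led by PARP14 (0.76), XAF1 (0.48), IFIT3 (0.64) and IFIT5 (0.39). That 5 became 9 without HF lactation replicate 4, 16 without PR dry replicate 3 and 11 without PR lactation replicate 2. PR animal 1 stood at 0.69 for the interferon-stimulated list and the other PR animals between -0.17 and 0.12. In the acute phase list haptoglobin (HP) gave 1.15 (SE 0.36) and A2M 0.57 (SE 0.16), while 6 of 12 members were higher and 6 lower.

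Gamma delta T cell and B cell genes lay mostly on the lower side. All 8 tested gamma delta T cell genes were lower, 3 at an unadjusted p under 0.05 (median -0.23). The WC1 genes encode scavenger receptors by which ruminant gamma delta T cells are recognised: CD163L1 gave -0.90 (SE 0.29, adjusted p = 0.284), WC1.3 -0.50 (SE 0.14) and WC1 -0.34 (SE 0.12). With slide position as a factor they came to -2.69, -1.36 and -1.05. Those values rest on the only dry array at position 3, PR dry replicate 2. It had the highest level of all arrays for each, at 1.77, 1.26 and 0.93. Names of the WC1 genes share a multigene family, so cross-hybridisation between members was not separated here. The list's mean lay between -0.20 and 0.75 in the dry arrays and between -0.20 and 0.28 in lactation, with wide overlap. It was lower in all 7 animals other than PR animal 1, which stood at 0.045.

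The B cell genes were lower in 18 of 21 cases, 4 at an unadjusted p under 0.05 (median -0.13), with CR2 at -0.24, HVCN1 at -0.34, FCRLA at -0.30 and CXCR5 at -0.21. The median of the B cell list was -0.29 in HF and -0.02 in PR. That 4 became 11 without PR animal 1, 2 without HF animal 2 and 0 without HF animal 3. NK and cytotoxic genes were lower in 19 of 23 cases (median -0.11, with -0.27 in HF and 0.0020 in PR), and none was lower at an unadjusted p under 0.05. The mean of the NK list was lower in all 4 HF animals and higher in 3 of 4 PR animals. In that list the granule protein GNLY gave -0.54 (SE 0.28), whereas TYROBP, an adaptor that myeloid cells also use, gave 0.57 (SE 0.16). T cell genes were lower in 19 of 30 cases, 1 at an unadjusted p under 0.05, with a median of -0.047 (-0.13 in HF and 0.011 in PR) that ran from -0.12 to 0.0028 when 1 array or 1 animal was left out. They include TESPA1 at -0.18 (0.0024 with slide position as a factor) and CD6 at -0.30. In PR animal 1 the B and T cell lists were higher at lactation, by 0.38 and 0.42.

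**Figure D4:**
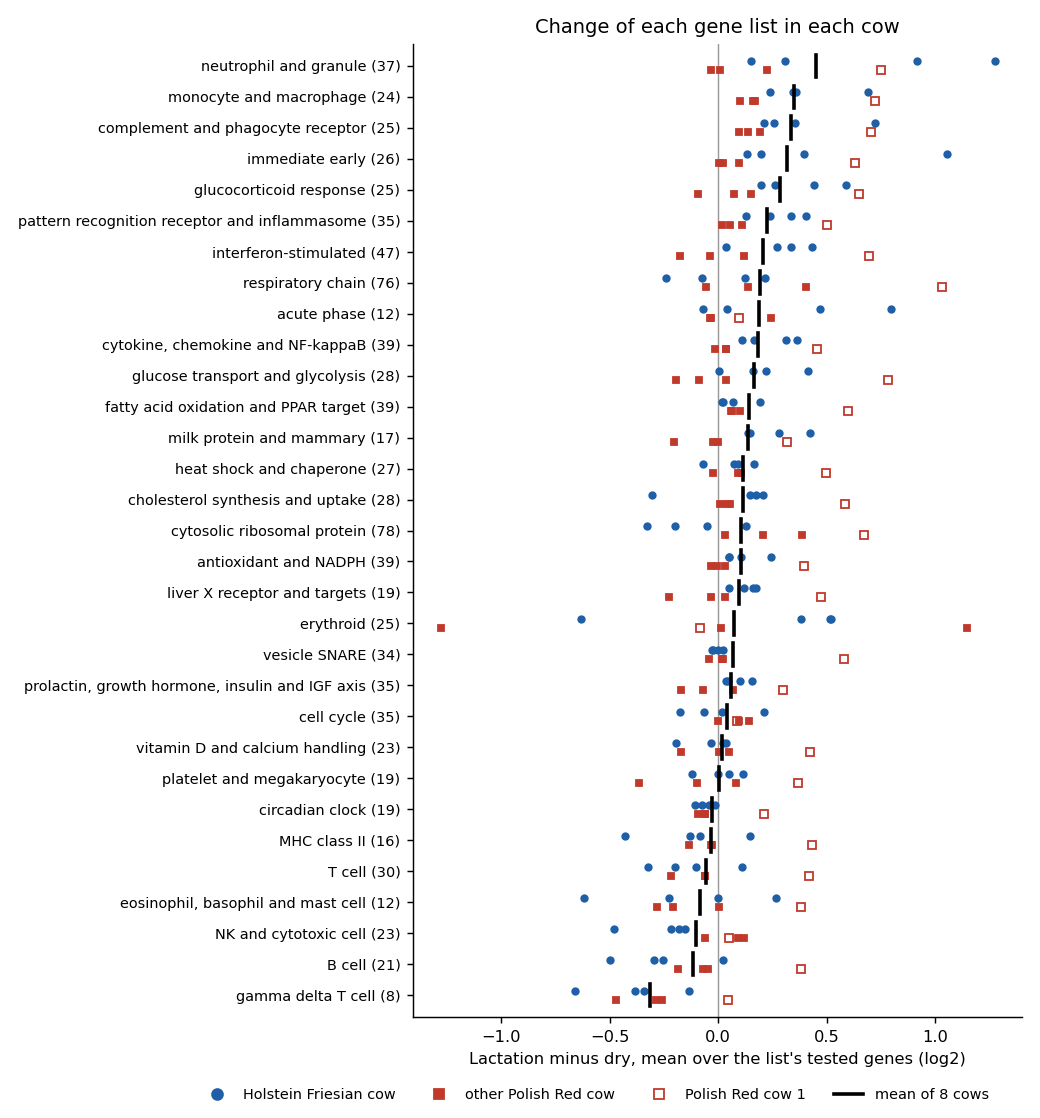
Lactation minus dry difference (log2) of the mean over each list's tested genes, whose number stands in brackets, with 1 point for each animal (HF circles, PR squares, PR animal 1 as an open square) and a black bar for the mean of the 8. PR animal 1 has the highest value of the 4 PR animals in 27 of 31 lists. The mean of the 4 HF animals and that of the other PR animals are 0.66 and 0.067 for the neutrophil, 0.41 and 0.14 for the monocyte and 0.37 and 0.045 for the glucocorticoid list.

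PR animal 1 had the highest mean of all 8 animals in 23 of the 31 lists, whichever cell type or pathway they cover. Among the other 7 animals, 5 lists were higher in every animal, namely the monocyte, complement, pattern recognition, immediate early and fatty acid oxidation lists. Some of these rises were close to 0. The smallest was 0.0048 for the immediate early and 0.016 for the pattern recognition list, both in PR animal 3. For the fatty acid oxidation list it was 0.019, in HF animal 3. The gamma delta T cell and circadian clock lists were lower in all 7, the clock list by as little as -0.013 in HF animal 4. PR animal 1 stood farthest above the others for the respiratory chain, where 72 of 76 genes were higher but 2 reached an unadjusted p under 0.05. That list's mean was 1.03 in PR animal 1 and 0.073 on average over the other 7, of which 4 were higher. The cytosolic ribosomal protein genes were 0.67 in that animal, -0.11 on average in HF and 0.21 in the other PR animals.

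The lipid and energy lists held genes on both sides. Of 39 fatty acid oxidation and PPAR target genes 29 were higher, 7 at an unadjusted p under 0.05 (median 0.12), a count that became 4 without PR animal 1 or PR animal 4, with PPARG, the fat cell regulator, at 0.24. The mean of that list was higher in all 8 animals, by 0.60 in PR animal 1 and by 0.019 to 0.19 in the others. Of 19 liver X receptor genes 10 were higher. Beside NR1H3 these include SMPDL3A, a phosphodiesterase that liver X receptors induce in human macrophages, at 0.42 (SE 0.093, adjusted p = 0.139, higher in 8 animals) and lipoprotein lipase (LPL) at 0.37, while PLTP gave -0.15. Of 28 cholesterol genes 23 were higher, 4 at that level, led by SOAT1, which esterifies cholesterol for storage, at 0.64 (SE 0.14, adjusted p = 0.139, higher in 8 animals). HMGCS1, an early enzyme of cholesterol synthesis, gave 0.35, while SCAP, the escort of the sterol sensor SREBP, gave -0.40.

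Genes of glucose transport and glycolysis were higher in 21 of 28 cases, 7 at an unadjusted p under 0.05 (median 0.19). They include the transporter SLC2A6 at 0.60, the lactate carrier SLC16A1 at 0.30, PGAM1 at 0.27 and PFKFB3 at 0.54. The mean of the glucose list differed by 0.78 in PR animal 1, by 0.20 on average in HF and by -0.081 on average in the other PR animals. Antioxidant genes were higher in 25 of 39 cases, 8 at that level (median 0.051), led by NFE2L2, the transcription factor NRF2, at 0.41 (SE 0.11) and haem oxygenase HMOX1 at 0.42 (SE 0.12). IDH1 gave 0.23 (-0.011 with slide position as a factor) and TALDO1 0.29. The mean of the antioxidant list differed by 0.40 in PR animal 1, by 0.11 on average in HF and by -0.0021 on average in the other PR animals. Chaperone genes were higher in 21 of 27 cases, with CANX at 0.26 and HSPA8 at 0.26, the latter at -0.15 with slide position as a factor.

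Genes tied to lactation itself had a median near 0 in blood. Of 17 milk protein and mammary genes 9 were higher and 8 lower (median 0.014). Xanthine dehydrogenase (XDH), which in the udder is a protein of the milk fat globule membrane, gave 0.53 (SE 0.13, adjusted p = 0.169), GPAT4 0.26 and DGAT2 0.74 (SE 0.33, or -0.0012 with slide position as a factor), while MUC1 gave -0.15 in 8 of 8 animals. Of 35 genes of the prolactin, growth hormone, insulin and IGF axis 21 were higher (median 0.066), with the kinase JAK2 at 0.31 and IGFBP1 at 0.32. IGFBP1 differed by 1.13 in HF animal 3 and 0.78 in PR animal 1, and by at most 0.03 in the other HF animals, and it came to 0.20 without HF animal 3. Of 23 vitamin D and calcium genes 12 were higher, with PTH1R at -0.26 and SLC8A1 at 0.35.

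In the remaining lists single genes stood against their list. THBS1 belongs to the platelet list, in which 13 of 19 genes were lower, among them the platelet integrin ITGA2B at -0.32, NRGN at -0.22 and MYL9 at -0.31. Among circadian clock genes the activator ARNTL gave -0.26 (SE 0.085, lower in 8 of 8 animals) and PER1 -0.24, and 4 of 19 were lower at an unadjusted p under 0.05. In the vesicle SNARE list 25 of 34 genes were higher while VAMP1 and STX10 (-0.22) were lower and STX6 gave 0.37. Among ribosomal proteins RPL39 gave 0.53 and RPS28 -0.25. Erythroid genes were higher in 17 of 25 cases and ranged over the animals from -1.28 to 1.15, the widest spread of any list. No gene of the erythroid, cell cycle, MHC class II or eosinophil, basophil and mast cell lists reached an unadjusted p under 0.05, and the last 3 had medians of 0.032, -0.055 and -0.028.

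The deer arrays give a view outside cattle, although deer RNA was read there on cattle probes. The 5 called probes gave 0.53 (SE 0.27) for GNB4, 0.29 (SE 0.17) for ACVRL1, 0.55 (SE 0.18) for CLEC4D, 0.28 (SE 0.12) for NUDT16L1 and 0.25 (SE 0.13) for ABCC10 in deer. The sign is shared with cattle for the probes that rose and opposite for those that fell. The difference from cattle had an adjusted p of 0.330 for NUDT16L1 and for ABCC10, and of at least 0.572 for the others. Over all probes 2 differed between deer and cattle (0.00619%).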

How the data were processed

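The deposited files give, per the file headers, the Cy5 and Cy3 spot intensities of each Agilent array (mean signal and median local background) from Feature Extraction 10.10.1.1, while the submitters' processing notes name version 10.7.3.1. The deposited log10 ratio, which Feature Extraction background-subtracted and dye-normalized per the file headers, was used as an alternative. The authors' deposited tables of normalized log2 ratios were used for list membership alone, and how they were made is not given in the sources used here.

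Intensities were background-corrected with normexp (offset 50) and loess-normalized within each array in limma 3.58.1 (R 4.3.3, statmod 1.5.0). Control spots had weight 0 and outlier spots were left out, and the spots of a probe were averaged. A probe entered the test if, in either state, 6 or more of the 8 arrays had a Cy5 signal called well above background, as 32300 of 43653 did. The fit over 16 arrays had state and breed as terms and the animal as a block, with a within-animal correlation of 0.055, followed by empirical Bayes and Benjamini-Hochberg adjustment over the 32300 probes. A gene was represented by its tested probe of highest mean intensity. Names came from the files and from RefSeq accessions and symbols, for 34302 probes. The number of arrays limits the precision.

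The animals' numbers pair the arrays by subject per the labels. Deviations of the 2 arrays of an animal correlated above 0.1 in 4 of 4 HF and 2 of 4 PR animals. Checked on simulated data of 31857 probes, the fit found 62% of the changes of log2 0.5 and 94% of those of log2 1, with 9 false calls. The simulated noise was independent for each probe and array, without animal, breed or slide effects or arrays that stood apart. These shares therefore do not give the power or error rate on the real arrays.

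Named are up to 15 genes a side with the smallest p and the same sign in at least 7 of 8 animals, up to 4 members of each list, and genes that led 1 breed, of which 2 genes are not reported here. The members and lists were chosen with earlier results of these data known. Other background corrections, normalizations, filters, blocks, terms and left-out arrays were tried as alternatives. Replicates are separate animals per the labels.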

Additional observations from a re-analysis of the deposited data

Results flagged for a closer look

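Among 34 named genes, each looked at in the 8 arrays of either state, 2 of 68 groups held an array far from the other 7, and chance marks about 1 group in 20. ACVRL1 was lowest at peak lactation in PR lactation replicate 1, at -0.791 against -0.43 in the nearest array and -0.11 at the other end. ACSL6 was lowest in the dry period in PR dry replicate 1, at -1.595 against -1.14 in the nearest array. Both arrays belong to PR animal 1.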

How the results depend on the processing

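Over 45 alternatives the 5 called probes kept their direction, while the calls did not hold: 18 alternatives left 0 probes called, 12 called all 5, 10 called 1 to 4 of them and 23 called none of them. The fit without slide A is the same as that without PR animal 1 and is counted under both names. Each of the 5 moved the same way in 8 of 8 animals, so leaving out arrays could hardly turn its direction. Against 5 in the reported fit, limma called 0 probes without the replicate block, with median centring, with Cy5 intensity alone, with an intensity trend and robust empirical Bayes, without slides G and H (HF animals 2 and 3), and without slides A, G and H. These left 3058, 1567, 1099, 3260, 1641 and 2155 probes at an unadjusted p under 0.05. It called 1 with the slide as a block, 2 without the breed term, 3 with the scan day as a block, 13 without background correction, 14 with an offset of 16, 14 with a filter on both channels, 24 with scale normalization, 36 with array weights, 22 without slide A and 11 without PR animals 1 and 2. The animals as fixed effects gave 4, of which 1 was among the 5, and Agilent's log ratio gave 5, of which 2 were. The mean of a gene's probes called 10 genes. Leaving out 1 array or 1 animal gave 0 to 36 calls. The HF minus PR difference had 0 calls throughout, and deer minus cattle had 0 without the replicate block.

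With position on the slide as a factor, which compares the states through position 3 alone, 21 probes were called, 1 higher and 20 lower and none of the 5, and 2165 lay at an unadjusted p under 0.05, 781 higher and 1384 lower. The signs of these values turned: OLR1 to -0.018, KIR3DL1 to 0.049, TESPA1 to 0.0024, IDH1 to -0.011, HSPA8 to -0.15, ATF3 to -0.035, KLF4 to -0.29, DGAT2 to -0.0012, ATP5PB to -0.14, NDUFB6 to -0.19 and the brightest ABCC10 probe to -0.70. That ABCC10 probe also turned to -0.013 without slides A, G and H, to -0.011 without PR animals 1 and 2 and to -0.087 as the mean of the gene's probes, and ARRDC3 turned to -0.049 with Cy5 alone. The cause was not tested. Medians of the monocyte (0.20 to 0.41), neutrophil (0.095 to 0.62), complement (0.15 to 0.39) and gamma delta T cell lists (-0.89 to -0.17) kept their sign, while those of the T cell (-0.32 to 0.078), respiratory chain (-0.086 to 0.30) and ribosomal lists (-0.21 to 0.23) did not.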
